A study of Mus musculus with 10 samples.

Results

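In mouse embryonic stem cells whose only SET protein was an HA-tagged transgene product, 723 regions at the ends of protein-coding genes carried a SET-HA peak in every one of 4 libraries. They were chosen from 37661 regions obtained by merging overlapping autosomal peaks of the 4 libraries, where 1 shared bp was enough. A region was kept when it was listed in all 4 libraries and overlapped a window reaching 1 kb to each side of a gene end in the RefSeq gene table of assembly GRCm38.p6. Of the merged regions, 906 (2.41%) were in all 4 lists, and 183 of these lay farther from every protein-coding gene end. Since presence in 4 lists and closeness to a gene end chose the regions, these counts describe the choice and are no findings.

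The cells were KH2 embryonic stem cells, grown on mouse feeder cells that were removed before the experiment, with a doxycycline-inducible HA-SETα or HA-SETβ transgene in the pBS31 vector. In SETα addback and SETβ addback the transgene was expressed in SET KO cells, with 2 libraries each. In SETα overexpression and SETβ overexpression, again 2 libraries each, it was expressed in cells that kept endogenous SET. All 8 libraries came from cells given 1 µg/ml doxycycline for 24 h, crosslinked with DSG before formaldehyde, and precipitated with an HA antibody. Each group was a line of its own, so line and group cannot be told apart. The labels do not say whether replicates were separate cultures, so p-values measure only the spread between these libraries. SET KO cells that received no doxycycline (2 samples) are not analysed here, and no background from cells without the tag stands beside the values. Chromosomes 8 and 11 were not analysed here either, which left 17 autosomes.

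SET is a histone chaperone that binds core histones, shields their tails from acetyltransferases as a part of the INHAT complex, and inhibits the phosphatase PP2A. SETα and SETβ are made from the same gene and differ only at their N-terminus. Gene starts in mammals often lie in CpG islands, stretches rich in CpG dinucleotides with open chromatin. Many starts of housekeeping genes carry short motifs for factors such as the ETS family, NRF1, NF-Y, SP/KLF proteins and YY1.

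The promoter windows of 5 regions among the 10 strongest are shown because they hold the motif with the largest gap in share between these promoters and all promoters among 10 motifs searched, CCGGAAG, the core bound by ETS factors. That of Nsfl1c, the third strongest region, is shown as a window without it. Rab33b and Mrpl44, also among the 10 strongest, had windows without it too. Each window runs from 250 bases before to 50 bases after the listed start, 5′ to 3′ in the direction of the gene, and comes from RefSeq (GRCm38.p6). Capitals mark CCGGAAG or its reverse complement CTTCCGG.
Ddost (chr4:138304488-138304787, + strand): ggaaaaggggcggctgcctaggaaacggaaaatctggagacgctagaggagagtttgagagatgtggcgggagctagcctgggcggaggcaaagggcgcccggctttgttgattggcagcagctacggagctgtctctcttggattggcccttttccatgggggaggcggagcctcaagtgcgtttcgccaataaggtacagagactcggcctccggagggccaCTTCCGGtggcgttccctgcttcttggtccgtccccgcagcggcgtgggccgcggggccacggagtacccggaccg
Kctd5 (chr17:24073436-24073735, - strand): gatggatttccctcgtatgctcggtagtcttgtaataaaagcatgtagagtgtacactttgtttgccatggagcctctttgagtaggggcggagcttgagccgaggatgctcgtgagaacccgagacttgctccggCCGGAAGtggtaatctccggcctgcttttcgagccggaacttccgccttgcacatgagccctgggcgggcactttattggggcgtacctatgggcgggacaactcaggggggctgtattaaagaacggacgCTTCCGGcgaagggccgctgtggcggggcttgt
Dcaf10 (chr4:45341851-45342150, + strand): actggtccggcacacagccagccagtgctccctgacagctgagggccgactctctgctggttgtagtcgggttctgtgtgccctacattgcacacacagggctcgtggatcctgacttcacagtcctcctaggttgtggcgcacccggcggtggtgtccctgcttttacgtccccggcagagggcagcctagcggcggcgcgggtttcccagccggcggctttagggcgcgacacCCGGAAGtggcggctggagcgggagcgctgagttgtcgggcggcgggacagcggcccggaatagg
Mrpl21 (chr19:3282792-3283091, + strand): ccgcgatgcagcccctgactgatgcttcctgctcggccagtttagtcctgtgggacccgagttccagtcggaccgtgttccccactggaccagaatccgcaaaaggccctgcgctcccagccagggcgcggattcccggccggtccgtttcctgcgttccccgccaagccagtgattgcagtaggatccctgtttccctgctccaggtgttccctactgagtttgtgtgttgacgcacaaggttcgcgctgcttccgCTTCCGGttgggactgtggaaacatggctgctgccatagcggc
Bms1 (chr6:118419368-118419667, - strand): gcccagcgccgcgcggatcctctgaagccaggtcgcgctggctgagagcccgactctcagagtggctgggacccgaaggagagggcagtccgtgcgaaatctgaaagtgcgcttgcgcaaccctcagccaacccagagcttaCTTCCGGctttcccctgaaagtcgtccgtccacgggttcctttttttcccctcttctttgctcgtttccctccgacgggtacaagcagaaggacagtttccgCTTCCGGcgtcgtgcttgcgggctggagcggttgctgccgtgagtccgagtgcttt
Nsfl1c (chr2:151493932-151494231, + strand): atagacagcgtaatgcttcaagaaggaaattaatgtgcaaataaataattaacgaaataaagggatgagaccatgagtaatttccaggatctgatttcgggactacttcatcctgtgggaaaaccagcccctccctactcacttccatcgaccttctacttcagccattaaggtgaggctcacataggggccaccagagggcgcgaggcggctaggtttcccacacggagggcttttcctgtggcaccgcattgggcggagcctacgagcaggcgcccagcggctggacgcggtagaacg

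Positions are in bases from the start, negative before it. The Ddost match was centred at −23, and the summits of the 4 libraries lay at 9, 9, 30 and 18. In this and all later lists the libraries are in the order SETα addback replicates 1 and 2, then SETβ addback replicates 1 and 2. Kctd5 held 2 matches, and its summits lay at −81, −28, −53 and −46, between both matches at −111 and 20. At Dcaf10 the summits lay at −80, −64, −50 and −56, or 38 to 68 bases from the match. The Mrpl21 window overlaps that of Ighmbp2 on the other strand, and a single match, 54 to 103 bases from the summits, was counted here. At Bms1 the summits lay at −34, −37, −40 and −36, within 31 to 37 bases of the nearer of 2 matches. At Nsfl1c the summits lay at −17, −15, −12 and −19, 7 bases apart at most against 6 at Bms1, but with no match in the window. Fragments averaged 300 to 500 bp per the labels, so these distances between a summit and a motif lie well below fragment length.

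Presence in all 4 lists was limited by the shortest of them. The lists held 21312, 15052, 2342 and 9260 autosomal peaks, and peaks in the 723 regions made up 3.73%, 5.24%, 31.9% and 8.42% of them. Without SETβ addback replicate 1, the library with 2342 peaks, 1233 regions at gene ends would have been in every remaining list. Regions in more libraries were at a protein-coding gene end more often. The share was 26.3% of 31161 regions in 1 library, 53.8% of 4418 in 2, 67.7% of 1176 in 3 and 79.8% of 906 in all 4, against 32.1% of all merged regions. Read totals were not used here, so the depth behind each list is unknown.

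The regions covered a wide range of peak strength. The −log10 p that the authors' peak caller gave a region's strongest peak ran from 2.61 over a median of 11.8 to 156 in SETα addback replicate 1 and from 2.85 over 14.2 to 115 in replicate 2. In SETβ addback it ran from 2.43 over 11.8 to 166 in replicate 1 and from 2.40 over 10.5 to 145 in replicate 2. Median fold enrichments over the local background, also the peak caller's values, were 5.23, 6.50, 5.01 and 4.61. A −log10 q of at least 5 was reached by 432, 488, 405 and 382 of the regions, which is between 52.8% and 67.5% of them. Regions strong in one library were strong in the others. Spearman's rho of the −log10 p across the 723 regions was between 0.84 and 0.89 for the 6 pairs of libraries, as a description, since the regions share each library's depth. The pairs of the same isoform had 0.89 each and the pairs of different isoforms 0.84 to 0.86.

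Regions were ordered by the mean over libraries of the peak's rank within its own list, in percent of the list. The shortest list, that of SETβ addback replicate 1, gives the largest percentages and so weighs most in this order. With equal weight for each library, an order added after the data were seen, the first 10 regions were the same ones with Nsfl1c first, and 16 of the first 20 were shared. Ddost, a subunit of the oligosaccharyltransferase that puts glycans on nascent proteins, came first. Its peaks had a −log10 p of 112, 88.4, 166 and 145, and fold enrichments of 24.1, 23.9, 29.9 and 28.7. It was the strongest of the 723 in both SETβ libraries and the fourth and ninth in the SETα libraries. Rab33b, a small GTPase of the Golgi, came second with a −log10 p of 108, 115, 165 and 106, and it led SETα addback replicate 2. Nsfl1c, which encodes the p97 cofactor p47, had 156, 101, 158 and 108 and led SETα addback replicate 1.

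The region at the start of Kctd5, an adaptor of cullin ubiquitin ligases, which also lay within 1 kb of an end of Pdpk1, the kinase PDK1, had a −log10 p of 104, 97.5, 135 and 119. Dcaf10, another ubiquitin ligase adaptor, had 101, 80.3, 160 and 116. The region between Mrpl21, a protein of the large mitochondrial ribosomal subunit, and Ighmbp2, a helicase, had 100, 83.8, 133 and 117. In each of these 3 regions both SETβ values lay above both SETα values, but a −log10 p also depends on a library's depth and is not comparable between lists. Rad54l2, a SNF2-type helicase, had fold enrichments of 25.4, 27.3, 16.8 and 15.6, the higher ones in SETα. The region at the start of Mrpl44, which also lay at an end of Wdfy1, had a −log10 p of 93.4, 95.9, 114 and 101. Dpy19l4, of the C-mannosyltransferase family, had 122, 102, 103 and 99.9.

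Bms1, a GTPase needed for the small ribosomal subunit, had a −log10 p of 103, 102, 112 and 73.9. The next 10 regions were at Ndufs7, a subunit of respiratory complex I, Cpsf1, of the pre-mRNA 3′ end cleavage complex, Otud7b, a deubiquitinase, Mlec, a lectin of the endoplasmic reticulum, Mrpl39, Slc39a13, a zinc transporter, Mrpl30 with Mitd1, the peroxisomal assembly gene Pex3 with Adat2, Rpl37 with Card6, and B4galt7, a glycosyltransferase of proteoglycan synthesis. Their −log10 p lay between 46.4 at B4galt7 in SETα addback replicate 2 and 130 at Mrpl39 in SETβ addback replicate 1. Of the first 20 regions, 4 held a gene of the large mitochondrial ribosomal subunit, but with equal weight for each library Mrpl39 and Mrpl30 left the first 20, as did B4galt7 and the region of Card6 with Rpl37. At the other end of the order stood Safb2 with Safb, scaffold attachment factors, with 2.95, 5.06, 3.30 and 3.71. Gpatch3 had 4.40, 3.61, 2.43 and 3.91, and Gars, the glycyl-tRNA synthetase, had 4.12, 3.51, 3.30 and 3.39.

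**Figure D1:**
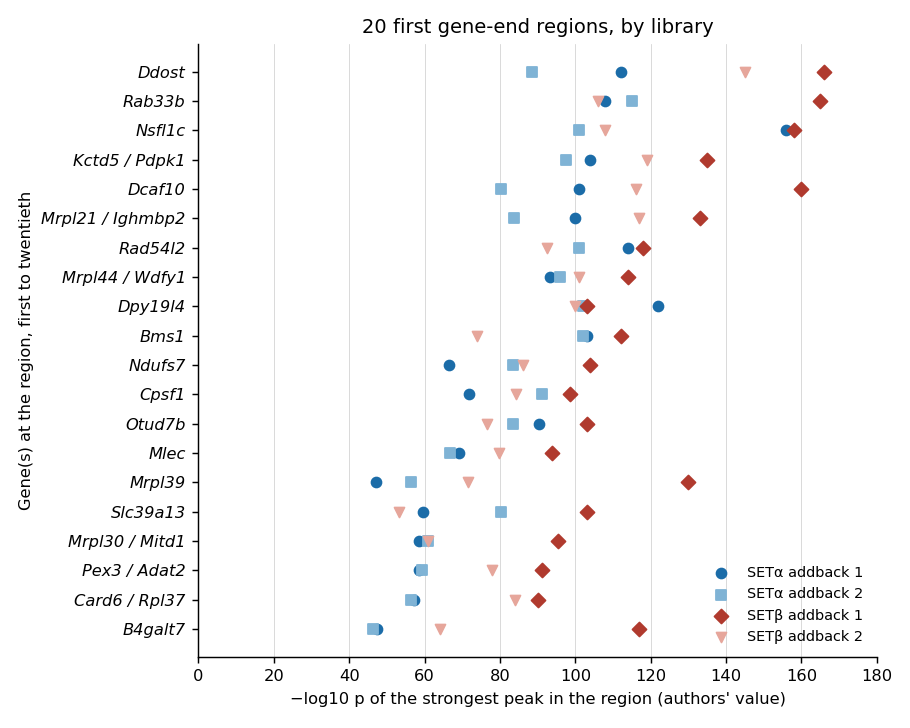
The −log10 p of the strongest peak (x axis, authors' value) in each of the 4 addback libraries (symbols) at the 20 first regions (y axis, named by their genes). Ddost, Rab33b and Nsfl1c lie at 88.4 or higher in every library, and SETβ addback replicate 1 (dark red diamonds) is the highest of the 4 at 19 of the 20 regions, all but Dpy19l4. This library also weighed most in the choice of the 20, and it was the highest at 18 of the first 20 with equal weights and at 261 of all 723.

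The summits sat close to the gene end, although the rule allowed any place within the window. The median distance of a library's strongest summit to the nearest protein-coding gene end was 122 and 124 bp in the SETα libraries. Both SETβ medians lay below them, by 5.00 bp on average (exact two-sided permutation test over 2 against 2 libraries, p = 0.333, the smallest possible). With peaks of a −log10 q of at least 5 the 4 medians were between 71 and 80 bp. Without SETβ addback replicate 1, the shortest list, more regions enter and the medians of the other 3 libraries were 191, 181 and 192 bp. In that case the sign of the isoform difference reversed, to −6.00 bp (exact permutation test, p = 0.667). Summits within 50 bp of the gene end made up 23%, 24.9%, 25% and 25.7% of the regions, and those within 250 bp 70.0%, 71.9%, 70.5% and 68.6%. At 409 regions (56.6%) all 4 summits lay within 250 bp. Summits lay inside the gene at 63.2%, 64.9%, 62.5% and 60.7% of the regions, with all 4 inside at 348 and all 4 outside at 165.

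The nearest gene end was nearly always the start. Strand was known for 583 regions, from genes that also appear in the RefSeq promoter table, and at 570 of them (97.8%, Wilson 95% interval 96.2% to 98.7%, which covers counting error only) the start was nearer. The share was 84.5% of gene-end regions in 1 library, 93.3% in 2 and 96.0% in 3. At these 570 starts the median summit position was 52.0, 53.5, 42.0 and 36.5 bp into the gene, and its lower quartile was at −51.0, −43.0, −54.0 and −58.8 bp, before the start. The profile of summits around starts peaked within 50 bp on either side of the start in all 4 libraries and fell off more slowly into the gene than upstream.

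**Figure D2:**
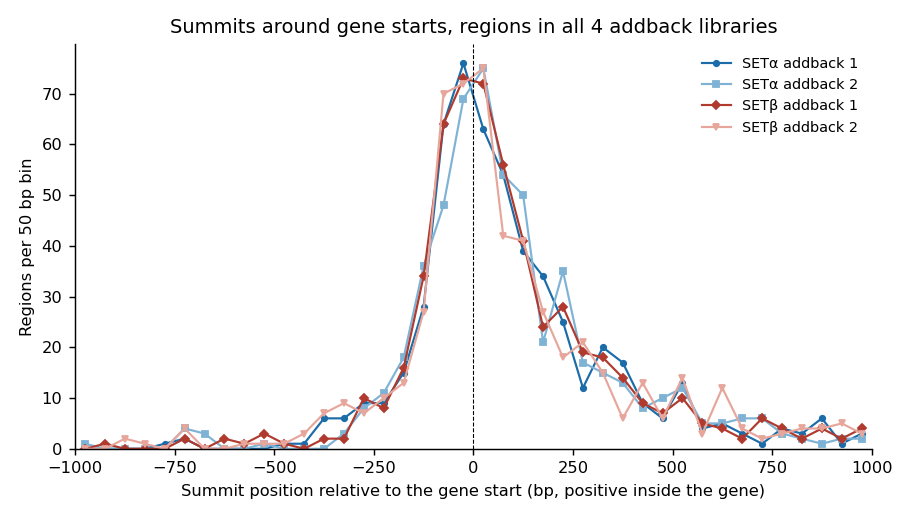
Number of regions (y axis) with the strongest summit in each 50 bp bin of distance from the gene start (x axis, positive inside the gene), for the regions whose nearest gene end is a start, 1 line per addback library. All 4 lines peak in the bins next to the start, and the side inside the gene has the longer tail.

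Starts of the promoter table, an alternative chosen after the data were seen, gave about the same distances as gene ends. Over the 697 regions on chromosomes with such starts, the median distance of the summit to the nearest one minus that to the gene end was 4.00, −2.00, −2.00 and 3.00 bp. In SETβ addback replicate 1, for example, it was 114 bp to a listed start and 116 bp to a gene end. At 576 of them a listed start lay within 1 kb of a summit. There the median distance was 89.5, 90.5, 82.0 and 92.0 bp to a listed start, against 115, 120, 110 and 109 bp to a gene end. Closeness to a listed start chose these 576, so the smaller distance is partly given by the choice. At 21 regions all 4 summits lay over 1 kb from the gene end, and at 11 of these all 4 were within 250 bp of a start in the promoter table. Dcaf10 was one, with summits 1045 to 1075 bp into the gene and 50 to 80 bp from its listed start. Tars2, the mitochondrial threonyl-tRNA synthetase, had summits 1356 to 1402 bp into the gene and 14 to 32 bp from a listed start. Psmc2, a proteasome ATPase, had them 1424 to 1473 bp into the gene and 1 to 48 bp from a listed start. In these genes the outermost end in the gene table and the start in the promoter table are different positions.

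A few regions had no start near them. At 7 regions whose genes all had a known strand only the 3′ end of a gene lay within 1 kb. The glycolytic enzyme gene Eno2 (chr6:124758960-124759943) had a −log10 p of 47.2, 38.0, 24.3 and 15.4, with summits 568 to 643 bp beyond its 3′ end. Its region lies in a segment of chromosome 6, described below, where peaks of the SETα overexpression libraries are crowded. Zscan22, a zinc finger gene (chr7:12909962-12910834), had 24.2, 20.9, 36.8 and 13.8, with summits 1311 to 1393 bp beyond the 3′ end. Pck1, which encodes the gluconeogenic enzyme PEPCK (chr2:173159048-173159637), had 14.5, 11.9, 3.44 and 6.98. The other 4 were at Sfn, Gm40369, Gm21188 and Gm46933, with a −log10 p of at most 20.2 in any library.

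The edge of the rule was thinly filled. Just inside it, the regions farthest from a gene end were at Psmc2, Gapvd1 and Arhgef1, at 991, 960 and 955 bp. Just outside lay regions near Sh2b1 at 1007 bp and Mcl1 at 1015 bp. The Sh2b1 region (chr7:126474546-126475643) had a −log10 p of 18.3, 34.7, 16.8 and 25.1, above the median of the regions inside in each library.

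Many regions lay at the ends of several genes. At 184 of the 723 (25.4%), 2 or more protein-coding genes had an end within 1 kb, against 14.2% of 8186 gene-end regions in a single library. The 1 kb was counted from the edges of each region, so a longer region covers more ground. The part of region length in this difference was not tested. At 102 regions 2 known starts lay within the window. These included Mrpl21 with Ighmbp2, Mrpl30 with Mitd1, Pex3 with Adat2, Yipf2 with Timm29, a gene of mitochondrial protein import, and Hira with Mrpl40. In all, 901 of 18013 protein-coding genes (5.00%) had at least 1 such region at an end, and 22 of them had 2 or more. Longer RNA genes without coding function (lncRNA in the gene table) overlapped 87 regions (12.0%), and 42 of the 183 regions away from coding gene ends (23%). Transfer RNA genes overlapped 3 regions (0.415%), against 5 of the 183 (2.73%).

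In shape most regions were single narrow peaks. Each library had exactly 1 peak in 571 regions (79.0%), and the merged region spanned a median of 860 bp, from 319 to 2808. The share was about the same in the 183 regions away from coding gene ends, at 143 (78.1%), and their median span was 779 bp. Median widths of the strongest peak were 595 and 678 bp in the SETα libraries and 485 and 507 bp in the SETβ libraries. Widths were larger in both SETα libraries than in both SETβ libraries, by 140 bp on average (exact two-sided permutation test, p = 0.333, the smallest possible). The SETα lists were also the longer ones, and the part of list length or depth in this difference was not tested. Widths varied more between libraries than strengths did, with a Spearman's rho of 0.35 to 0.57 across the regions.

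Peaks at gene ends were wider and ranked higher than those of the 183 regions that were also in all 4 lists but lay away from coding gene ends. The latter had median widths of 507, 558, 390 and 401 bp, so the peaks at gene ends were wider by 88, 120, 95 and 106 bp in the 4 libraries. The mean difference was 102 bp (exact two-sided sign-flip test over 4 libraries, p = 0.125, the smallest possible). It was 56.2 bp with peaks of a −log10 q of at least 1.3 and 27.5 bp with at least 5. The median rank was 2.92%, 3.16%, 17.6% and 4.67% of the list at gene ends, where a low percentage is a strong peak, and 4.54%, 5.23%, 26.2% and 9.21% at the others. The gene-end regions thus ranked higher in each library. The mean difference was −4.22 percentage points (exact two-sided sign-flip test, p = 0.125, the smallest possible). It was −2.02 and −1.35 points at these −log10 q thresholds, −7.85 when peaks were ranked by fold enrichment, and −8.35 without SETβ addback replicate 1, with the same sign throughout.

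The 4 libraries placed their summits near each other. The distance between the outermost of the 4 summits of a region had a median of 111 bp, with quartiles of 58.0 and 294 bp, and was at most 50 bp at 147 regions (20.3%). The 183 regions away from coding gene ends had a median of 141 bp. Position and strength went together. In the strongest 180 regions the median spread of summits was 48.5 bp, the median distance to the gene end 64.5, 64.0, 57.5 and 61.0 bp, and the median width 732, 788, 656 and 629 bp. In the weakest 180 the spread was 340 bp, the distance 224, 232, 190 and 254 bp, and the width 416, 467, 298 and 365 bp. Whether the lower strength itself bears on the spread of summits was not tested.

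The extremes of shape were few. The summits of Bms1, Mrpl30 with Mitd1, and Yipf2 with Timm29 fell within 6 bp of each other over all 4 libraries. At Mrpl30 they lay 8, 6, 2 and 3 bp into the gene. The widest spread, 1615 bp, was at Tmem121b on chromosome 6, followed by 1182 bp at Fcgr3, an immunoglobulin receptor gene, and 1174 bp at Crat with Ptpa. Ptpa encodes an activator of PP2A, the phosphatase that SET inhibits. The widest peaks were at Gm40365 with Gm40367, with 2808, 1901, 843 and 1128 bp, at Fcgr3, with 2408, 2345, 522 and 884 bp, and at Gm40369, with 1726, 2155, 1032 and 925 bp. At each of these 3 both SETα peaks were wider than both SETβ peaks. Tcf3 and Slc1a5 were among the narrowest, with 216, 200, 243 and 258 bp at Tcf3, a basic helix-loop-helix factor gene, and 211, 291, 220 and 250 bp at Slc1a5, a glutamine transporter gene.

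The promoters in these regions held the ETS motif more often than those of any other class counted, while their CpG content was near that of promoters with a region in fewer libraries. The RefSeq promoter table held 17635 promoter windows, and the listed starts of 698 of them lay in 545 of the regions. A window was assigned by its start alone, so one that overlaps a region only with other bases was not counted there. Promoters on chromosome 18 were not analysed here. Their median GC content was 61.7%, against 56.7% over all windows, and the median ratio of observed to expected CpG was 0.85, against 0.57. A ratio of at least 0.6, called CpG-rich here, was reached by 89.8% of them and by 48.1% of all windows. Windows with a region in 1, 2 or 3 libraries had a higher median GC content, of 63.7%, 64.7% and 65.7%, and CpG ratios of 0.78, 0.81 and 0.86. In 3 libraries, 543 of the 605 windows were CpG-rich. CCGGAAG on either strand was found in 342 of the 698 (49.0%), against 11.7% of all windows. Overlapping windows of neighbouring genes can share a match, and counted by region it was 272 of 545 (49.9%). At least 2 matches were found in 11.7% of the 698 windows and in 2.14% of all.

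The share rose with the number of libraries that listed a region. It was 7.48% of 13341 windows whose start lay in no addback region. With the start in a region it was 16.4% for regions in 1 library, 22% in 2, 27.8% in 3 and 49% for the gene-end regions in all 4. It was 23.4% (15 of 64) in windows with their start in the other regions in all 4 lists. Among CpG-rich windows alone, a restriction added after the data were seen, the shares were 15.0%, 17.8%, 23.2%, 28.4% and 50.9%, against 1694 of all 8480 CpG-rich windows. Within the regions the share fell from the strong to the weak ones, from 58.1% to 54.4%, 47.8% and 39.4% over 4 groups of equal size, ordered from the strongest to the weakest. With equal weight for each library these were 61.0%, 51.5%, 49.3% and 38.0%. Among the first 20 regions, 16 had a promoter window and 7 of these held the motif. The shorter core CCGGAA, which includes all matches of the longer one, was in 65.0% of the windows and in 18.8% of all. These are shares of letters in a window, and no binding by any factor was measured.

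**Figure D3:**
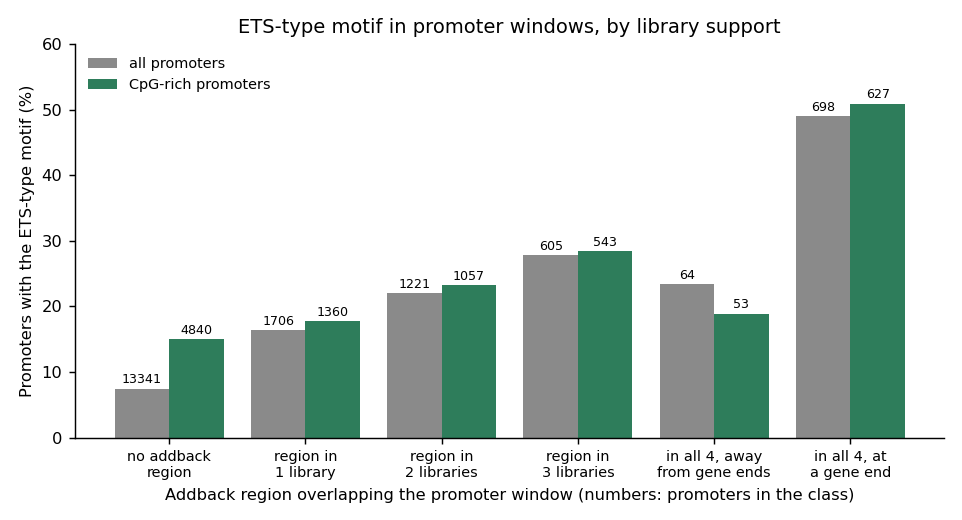
Share of promoter windows holding CCGGAAG or its reverse complement (y axis, percent) by the addback region in which the window's listed start lies (x axis). All windows are grey and CpG-rich windows green, with the number of windows above each bar. The gene-end regions in all 4 libraries stand at 49.0% and 50.9%, the other classes between 7.48% and 28.4%.

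Summits lay near the motif. In windows that held both a summit and a match, the median distance from the summit to the nearest ETS match was 44.0, 41.5, 44.5 and 47.0 bp, and 55.0% to 57.3% lay within 50 bp. The GC box, GGGCGG, the motif of SP/KLF factors, had medians of 47.5, 58.5, 57.5 and 47.5 bp. NRF1, searched as the core CGCANGCG, had 112, 101, 87.5 and 82.5 bp, and NF-Y, searched as CCAAT, 82.0, 86.0, 94.0 and 66.5 bp. ETS matches had a median position of −26.0 in these promoters and −36 in all promoters, so both the motif and the summit lay near the start, and the distance between them is not independent of that.

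The other motifs, each searched on both strands, differed less. The cores of NRF1, YY1, BANP and ZNF143 were shortened after the data were seen. The GC box was in 60.7% of the windows, against 46.4% of all, but among CpG-rich windows the order turned, with 62.7% against 74.3%. NRF1 was in 19.5% against 11.0%, and in 21.2% against 21.3% of CpG-rich windows. NF-Y was in 30.1% against 38.0%, and in 29.0% against 36% of CpG-rich ones. The TATA box, searched as TATAAA, was in 5.16% against 12.8%, and in 5.26% against 5.53% of CpG-rich windows. YY1, as AAGATGGCG, was in 3.30% against 1.68%, and BANP, as CTCGCGAG, in 2.29% against 1.13%. The CRE core TGACGT was in 9.89% against 8.50%, the E-box CACGTG in 8.17% against 7.71%, and the ZNF143 core ACTACAATT in 1.00% against 0.505%. Among CpG-rich windows the order of these 3 turned, with 10.0% against 12.9% for CRE, 8.93% against 11.3% for the E-box and 0.478% against 0.649% for ZNF143. YY1 and BANP kept theirs, with 3.67% against 3.16% and 2.55% against 2.19%. A window without these letters says nothing on whether a factor binds there.

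Genes of protein synthesis were the most frequent among the lists that were counted. The reference for each list is the 5.00% of all protein-coding genes with a region, and no list was tested, since the lists were made with earlier results of these data known. Of 65 mitochondrial ribosomal protein genes 16 (24.6%) had a region, led by Mrpl21, Mrpl44, Mrpl39 and Mrpl30. The list of translation factors and aminoacyl-tRNA synthetases, made by gene symbol, had 23 of 96 (24.0%), and 21 of 91 (23.1%) without methyltransferase genes such as Eef1akmt2 that its symbols take in. Among them Tars2 had a −log10 p of 52.4, 50.8, 85.7 and 62.7, Eef1b2, a translation elongation factor subunit gene, 58.4, 49.5, 86.8 and 50.9, and the translation initiation helicase gene Eif4a2 50.6, 60.8, 43.6 and 46.5. Of 72 cytoplasmic ribosomal protein genes 13 (18.1%) had one, with Rpl29 at 62.4, 68.2, 61.4 and 53.4 and Rps18, in a region shared with Vps52, at 49.3, 56.5, 68.7 and 35.8.

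The lists of transcription, splicing, protein turnover, oxidative phosphorylation and membrane traffic stood between 10.0% and 16.5%. Of 97 genes of RNA polymerases and general transcription factors 16 (16.5%) had a region. Med23, a Mediator subunit, had a −log10 p of 66.4, 74.2, 81.8 and 77.6, Polr3b, a catalytic subunit of RNA polymerase III, 39.4, 48.1, 70.0 and 49.9, and Tbp, the TATA-binding protein, 15.8, 34.8, 51.1 and 32.1. Of 90 splicing genes 9 (10.0%) had one, with Snrpd3 and Sf3a3 first. The proteasome and ubiquitin list had 19 of 133 (14.3%). Genes of oxidative phosphorylation had 11 of 95 (11.6%), with Ndufs7 and Ndufs1 first, and those of membrane traffic 23 of 227 (10.1%), or 22 of 223 (9.87%) without Arl6ip genes, with Rab33b, Ap3s2 and Vps52 first.

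The lists of chromatin, zinc finger, DNA replication and repair and histone chaperone genes stood between 7.84% and 12.0%. Chromatin modifiers and remodellers had 12 of 114 (10.5%), with Actl6a, a BAF subunit, and Kdm5a, an H3K4 demethylase, first. Zinc finger genes with a Zfp symbol had 29 of 342 (8.48%), and genes of DNA replication and repair 8 of 102 (7.84%). The list of SET and related histone chaperones had 3 of 25 (12.0%). Hira, which deposits histone H3.3, had a −log10 p of 39.4, 34.8, 30.7 and 24.8 in a region shared with Mrpl40. Ssrp1, a subunit of the FACT chaperone, had 12.6, 21.5, 21.5 and 18.8, and Ptma, prothymosin alpha, 5.44, 7.33, 3.38 and 5.46.

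The developmental and receptor lists stood below the reference. None of 30 pluripotency genes had such a region, but a list of 30 is too short to tell 0 from the reference. Of 166 genes in the developmental list 3 (1.81%) had one, and 3 of 149 (2.01%) without its Wnt and Foxred genes, which are no transcription factor genes. The 3 were Foxj3, Hoxd13 and Foxj2, each with a −log10 p of at most 7.66 in any library. Of 1368 olfactory and vomeronasal receptor genes only Vmn2r29 (0.0731%) had one, with 11.1, 9.74, 4.26 and 2.76.

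**Figure D4:**
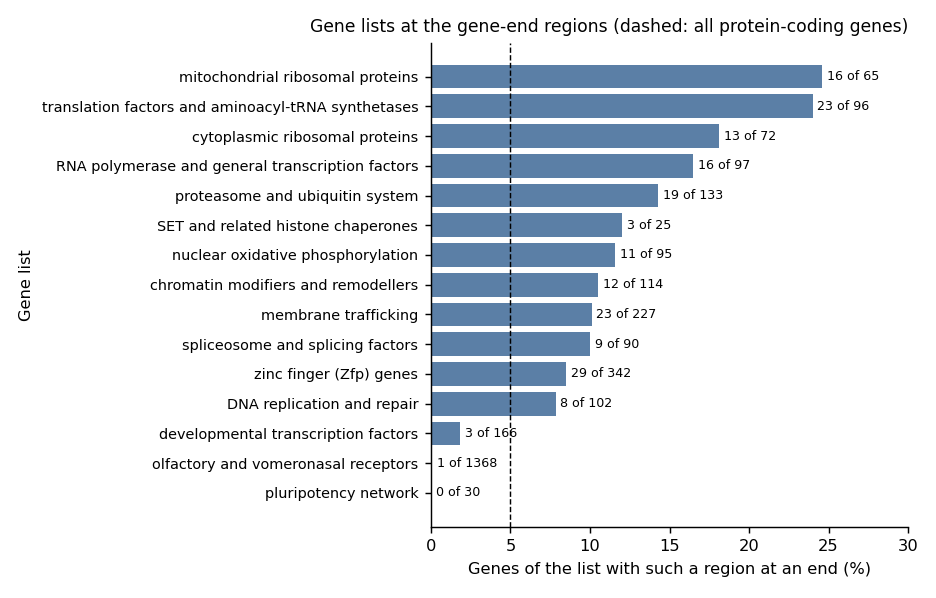
Share of the genes of each list (y axis) that have a gene-end region in all 4 addback libraries (x axis, percent, from 0), with the counts beside the bars and a dashed line at the 5.00% of all protein-coding genes. The lists of protein synthesis stand between 18.1% and 24.6%, and the pluripotency, receptor and developmental lists below the line.

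The order of the regions was compared between the isoforms by ranks. Ranks in percent of a list depend on its length, and by this measure 410 regions ranked higher in both SETα libraries and 17 in both SETβ libraries, with Vmn2r29, Eif5 and Rpl5 first for SETα and Enpp4, Gapvd1 and Sfn for SETβ. Ranks among the 723 regions in each library do not depend on list length and were added after the data were seen. By these 159 regions (22%) stood higher in both SETα libraries and 152 (21.0%) in both SETβ libraries. Ranked among all 906 regions in 4 lists, the shares were 21.2% and 22.0% of the gene-end regions and 18.6% and 19.7% of the 183 others, which makes 20.6% and 21.5% over all 906; these differences were not tested. The largest gap towards SETα was at Tmem127 with Ciao1, a cytosolic iron-sulfur assembly gene, ranked 313 and 413 with SETα and 658 and 647 with SETβ, followed by Wnk1, a kinase gene, and Vmn2r29. The largest towards SETβ was at Ncstn, a gamma-secretase subunit gene, with Copa, of the COPI coat, ranked 714 and 535 with SETα and 373 and 328 with SETβ, followed by Sfn, a cell cycle checkpoint gene, and Zfp606.

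The authors' lists of peaks that passed their comparison of replicates by irreproducible discovery rate held about as many of the regions for either isoform. The SETα addback list had a peak in 385 (53.3%) and the SETβ addback list in 394 (54.5%). Both lists had one in 327, only the SETα list in 58, only the SETβ list in 67 and neither in 271. The 327 had a median place of 175 in the order of strength and the 271 a median place of 585. The shares of all merged regions or of the 183 other regions in these lists were not counted. Whether the shares are particular to the gene-end regions is therefore unknown.

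In cells that kept endogenous SET, few of these regions had a peak. The overexpression lists held 4514 and 7232 autosomal peaks with SETα and 1112 and 2556 with SETβ, and the part of list length in the shares was not tested. A peak of SETα overexpression overlapped 25 (3.46%) and 36 (4.98%) of the 723 in replicates 1 and 2, and one of SETβ overexpression 11 (1.52%) and 28 (3.87%). The same libraries had a peak in 1.77%, 3.03%, 0.863% and 2.10% of all merged addback regions. In all, 664 regions (91.8%) had a peak in none of the 4 overexpression libraries and 59 (8.16%) in at least 1, against 4.78% of all merged regions. Of these 59 regions, 26 lay in a segment of chromosome 6 described below. The share over all merged regions was not counted without that segment. The 183 regions away from coding gene ends overlapped a peak more often in every overexpression library, at 4.92%, 10.9%, 2.19% and 7.65%. The gene-end regions differed by −2.96 percentage points on average (exact two-sided sign-flip test over 4 libraries, p = 0.125, the smallest possible). With overexpression peaks of a −log10 q of at least 1.3 this came to −1.04 points. It came to −5.88 and −4.48 with addback peaks of at least 1.3 and 5, −4.58 with a window of 2.5 kb, and −1.97 without SETα overexpression replicate 2.

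Most of the SETα overexpression overlap came from chromosome 6. A segment of its distal part, where peaks of the SETα overexpression libraries are crowded, held 26 of the 723 regions, from Bms1 to Cdkn1b, and 31 of its 257 protein-coding genes (12.1%). Of the 25 and 36 overlapping regions in the SETα overexpression libraries, 24 and 26 lay in it. Outside it the shares were 0.143% and 1.43% with SETα and 1.29% and 3.30% with SETβ. SETα minus SETβ overexpression was 1.52 percentage points over all regions (exact two-sided permutation test, p = 0.667) and −1.51 outside the segment (p = 0.667, same exact test), so its sign rested on this segment. The shortfall against the 183 other regions did not rest on it, at −3.03 points without it (exact sign-flip test, p = 0.125, the smallest possible).

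**Figure D5:**
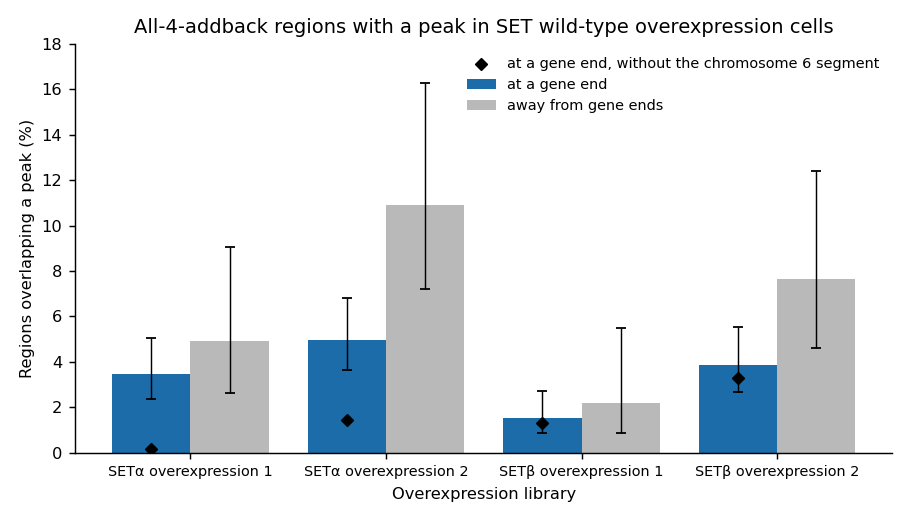
Share of the all-4-addback regions that overlap a peak in each overexpression library (y axis, percent, Wilson 95% intervals), for the 723 at a gene end (blue) and the 183 away from coding gene ends (grey). Black diamonds give the gene-end regions outside the crowded segment of chromosome 6, which lie at 0.143% and 1.43% in the SETα libraries and near the bars in the SETβ libraries.

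A peak in the overexpression cells was found at weak as well as strong addback regions. Of the strongest 180 regions 12 had one in at least 1 overexpression library, and of the weakest 180 it was 17. Fcgr3, Gm46977 with Etv6, and Borcs5, a subunit of a lysosome positioning complex, had a peak in all 4 overexpression libraries. At Fcgr3 the −log10 p was 15.1, 12.7, 7.77 and 4.89 in addback, and 7.80, 8.46, 7.38 and 10.9 in SETα overexpression replicates 1 and 2 and SETβ overexpression replicates 1 and 2. Fcgr3 lies on chromosome 1 and the others in the segment of chromosome 6. At Gm46977 the SETα overexpression peaks were 5922 and 8752 bp wide, against 551 and 1106 bp with SETβ. Another 4 regions, at Gm40363, Bid, Crebl2 and Gm3448, had a peak in 3 libraries each. Bid is a BH3-only apoptosis gene in the segment. Among the first 20 regions, Bms1, which also lies in the segment, had a peak in 2 overexpression libraries, and Mlec and Mrpl39 in 1 each.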

How the data were processed

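HA ChIP-seq peak lists of 8 libraries were analysed, 2 in each of 4 groups. Reads were aligned with Bowtie2 to GRCm38/mm10, peaks called with MACS2 and deepTools used, per the submitters' processing notes; versions, control library and thresholds are not given in the sources used here. In the deposited narrow peak lists the score, the fold enrichment (a linear ratio) and the −log10 p and −log10 q are the authors' values, called per library, and the summit is an offset from the peak's start. They were used to rank or filter peaks within a list. The authors' IDR lists pool both replicates, and their −log10 values were not compared between lists.

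Here, peaks were merged at 1 bp, and each region took a library's peak with the highest −log10 p. Gene ends came from the RefSeq gene table, and strands, starts and sequences from its promoter table (GRCm38.p6). Chromosomes 8 and 11 and the sex chromosomes were left out. Tests were exact permutations over libraries, computed in Python 3.11.15 with numpy 2.4.6, pandas 2.3.3 and scipy 1.17.1; with 2 against 2 libraries p cannot go below 0.333, and with 4 sign flips below 0.125. Tested on simulated lists with peaks planted at the same gene ends in all 4, the merging found 200 of 200 planted regions and 0 others. The remaining simulated peaks were placed at random, so this checks the merging code and says nothing on false regions in the real lists. The members and gene lists were chosen with earlier results of these data known. Named regions are the first 20 and last 3 in strength, the 3 widest, narrowest, tightest and most spread, the extremes between isoforms, those with most overexpression peaks, those next to the 1 kb edge and the first of each gene list; a few that this rule names are not reported here. Other −log10 q thresholds, windows, merging, rankings and left-out libraries were tried.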

Additional observations from a re-analysis of the deposited data

Results flagged for a closer look

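Chromosome X was outside the comparisons, and 12 regions at protein-coding gene ends there had a peak in all 4 addback libraries, out of 25 regions on that chromosome in all 4 lists and 1543 merged ones. No control sample was analysed here. Chromosome Y had 23 regions in all 4 lists and 0 at a protein-coding gene end.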

How the results depend on the processing

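Of 111 values under alternatives, 2 reversed their sign. Another 9, counts or shares, moved by over 1.5 times or out of the 95% interval of the main value. The other 100 include differences that kept their sign but changed in size; those between gene-end and other regions stand beside the results, and the isoform differences came down to 0.500 bp in distance and 0.305 points in overexpression overlap. The number of regions was 328 with a −log10 q of at least 5 and ranged from 747 to 1233 when an addback library was left out, with 1233 without SETβ addback replicate 1. The share of all-4-library regions at a gene end, 79.8%, was 84.0% and 87.5% with a −log10 q of at least 1.3 and 5, 73.6% with a window of 250 bp, 84.3% with 2.5 kb, and 74.6% to 78.3% without a library. The ETS share was 53.2% with a −log10 q of at least 5 and 41.6% to 49.1% without a library, lowest without SETβ addback replicate 1; these were alternatives added after seeing the data. The distance difference between isoforms ranged from −6.00 to 13.5 bp without a library, and the overexpression difference was −1.51 points without the crowded segment of chromosome 6. The causes were not tested.

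With replicate numbers as a replicate block, the isoform differences were 5.00 bp in distance, 140 bp in width and 1.52 points in overexpression overlap (exact sign-flip over 2 pairs, p = 0.5 each, the smallest possible). Deviations of same-numbered addback libraries had a correlation of 0.12, and the samples share only a number. Depth is unknown, and the shortest addback list limits which regions could be in all 4.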
